A study of Arabidopsis thaliana with 6 samples.

Results

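SWEET2, SWEET13, SWEET16 and SAG29 are 4 of the 17 genes of the Arabidopsis thaliana SWEET family of sugar transporters, and SAG29 is the gene of SWEET15. They were chosen because their signals differed between 35S::KLU and WT shoots in the 2 directions, so their differences between the genotypes are described below and not tested. Each was reported by 1 probe set, a group of short probes against 1 transcript, paired with that gene alone in the annotation, which makes 4 probe sets of the 22746 analysed and 4 of the 16 SWEET genes with a listed probe set. SWEET12 is not analysed here.

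The series compared 35S::KLU with WT, both in the Col-0 accession, with 3 Affymetrix ATH1 arrays per genotype and 1 array per sample. In 35S::KLU the KLU gene, which encodes the growth-promoting cytochrome P450 CYP78A5, stands behind the 35S promoter, which drives strong expression in most tissues, and whether the plants came from 1 transgenic line is not given in the sources used here. Shoots were taken at growth stage 1.03 from plates kept at 21 °C in days of 16 h light and nights of 8 h, 5 seedlings were harvested per genotype in each of 3 independent experiments, and the genotypes shared plates. Neither genotype was treated.

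SWEET proteins are membrane uniporters that let sugars move down their concentration gradient in either direction, without coupling to protons. The family falls into 4 clades. Clade III proteins sit in the plasma membrane and mainly carry sucrose, and several of them release sucrose from leaf cells toward the phloem or from the seed coat toward the embryo. Clades I and II mainly carry hexoses, and clade IV proteins, together with SWEET2 of clade I, sit in the tonoplast, the membrane of the vacuole in which leaf cells store sugars.

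The arrays had medians of 6.01 to 6.05 on the log2 scale. KLU had 0 listed probe sets, so the labels were not checked against the transgene. The labelled tissue was checked on the few markers with a listed probe set. The light-harvesting genes LHCB4.1 and LHCB4.2, which are highly expressed in green tissue, had signals between 13.48 and 13.74 on every array. The third measured green-tissue marker, LHCB4.3, was lower, between 7.89 and 8.86. Of 3 root markers, the root-hair genes EXPA7 and EXPA18 had signals between 3.91 and 5.08, while PYK10, a beta-glucosidase abundant in roots and seedlings, had 10.57, 10.63 and 10.85 in 35S::KLU against 10.02, 10.22 and 10.52 in WT (difference 0.43, SE 0.13, limma adjusted p = 0.078). None of the 6 measured green-tissue and root markers passed the threshold. PYK10 did so without WT replicate 3 (adjusted p = 0.019), with array quality weights (0.027) and with eBayes with trend and robust (0.049), each time as higher in 35S::KLU. Its part in the differences below was not tested, and the phloem and xylem marker lists had 0 members with a listed probe set.

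The signals below are the deposited log2 values from RMA, a procedure that corrects background, puts the arrays on 1 scale and summarises each probe set, and each difference is 35S::KLU minus WT on that scale. RMA understates differences of dim probe sets. An SD is over 3 arrays, an SE and an adjusted p come from limma fitted over all probe sets, and a gene passes where its Benjamini-Hochberg adjusted p is under 0.05. A signal from whole shoots cannot tell more cells of a type from more RNA per cell.

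Of the plasma membrane sucrose carriers, SWEET13 and SAG29 were higher in 35S::KLU. SWEET13, which transports sucrose and has also been linked to gibberellin transport in anthers, had log2 signals of 7.86, 7.88 and 7.70 in 35S::KLU against 5.90, 6.05 and 6.02 in WT. The lowest 35S::KLU array lay 1.65 above the highest WT array, so the genotypes were far from overlapping. The means were 7.81 ± 0.09 in 35S::KLU and 5.99 ± 0.08 in WT (SD, n = 3 each), a difference of 1.82 (SE 0.08, 95% interval 1.64 to 1.99), or 3.52-fold. This was the 32nd largest positive difference among the 22746 probe sets.

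SAG29 is known as a gene induced in senescing leaves, by abscisic acid and by osmotic stress, and its protein exports sucrose. Its log2 signals were 9.22, 8.91 and 8.75 in 35S::KLU against 7.82, 7.69 and 7.85 in WT. All 35S::KLU arrays lay above all WT arrays, with a gap of 0.89 between the nearest of them, and the 35S::KLU arrays were spread more widely. The means were 8.96 ± 0.24 in 35S::KLU and 7.79 ± 0.08 in WT (SD, n = 3 each), a difference of 1.17 (SE 0.11, 95% interval 0.91 to 1.43), or 2.25-fold.

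The tonoplast members went in opposite directions. SWEET2, a vacuolar sugar transporter known for limiting sugar loss from roots, had log2 signals of 7.41, 7.36 and 6.85 in 35S::KLU against 8.23, 8.20 and 8.27 in WT. The WT arrays agreed within 0.07, while replicate 3 of 35S::KLU lay well below replicates 1 and 2, and the gap between the genotypes was -0.79. The means were 7.21 ± 0.31 in 35S::KLU and 8.23 ± 0.03 in WT (SD, n = 3 each), a difference of -1.03 (SE 0.13, 95% interval -1.32 to -0.73), which made SWEET2 2.04-fold lower. The SD of SWEET2 in 35S::KLU was larger than that of 98.3% of probe sets in that genotype, and its SD in WT lay at the percentile 10.8. Without replicate 3 of 35S::KLU the difference was -0.85.

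SWEET16, a clade IV protein that carries hexoses and sucrose across the tonoplast, showed a small difference of the other sign. Its log2 signals were 7.25, 7.36 and 7.30 in 35S::KLU against 6.81, 6.92 and 7.03 in WT. The genotypes did not overlap, but the nearest arrays were 0.22 apart, as far as the lowest and highest WT arrays were from each other. The means were 7.30 ± 0.05 in 35S::KLU and 6.92 ± 0.11 in WT (SD, n = 3 each), a difference of 0.38 (SE 0.08, 95% interval 0.21 to 0.56), or 1.30-fold.

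**Figure D1:**
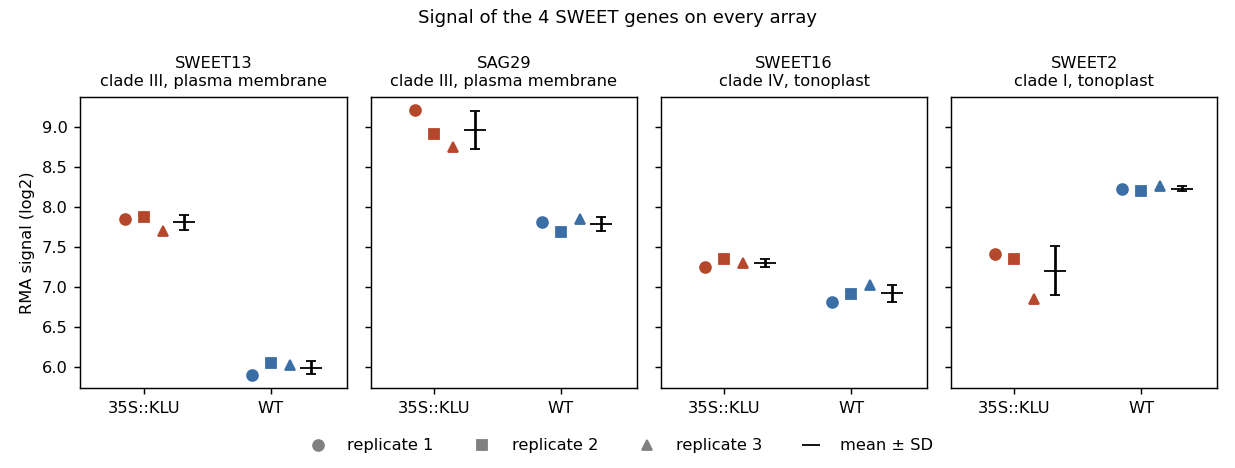
RMA signal (log2, vertical axis) of SWEET13, SAG29, SWEET16 and SWEET2 on each array of 35S::KLU and WT, with 1 symbol per replicate number and the mean ± SD of 3 arrays beside them. The 35S::KLU arrays lie above the WT arrays by at least 1.65 for SWEET13, 0.89 for SAG29 and 0.22 for SWEET16, and below them for SWEET2.

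All 4 genes passed the threshold in the fit from which they were taken, as did 8.32% of all probe sets (4.05% higher and 4.27% lower in 35S::KLU), and 25.9% of all probe sets had genotypes that did not overlap. SWEET16 stood just inside the threshold. It was chosen on this contrast, so its adjusted p-values here describe how near the threshold it stood and are no test of it. Its adjusted p in that fit was 0.016, and it was 0.070 when WT replicate 2 was left out, 0.061 when 35S::KLU replicate 2 was and 0.053 when 35S::KLU replicate 3 was. Just outside stood SWEET5 (also named VEX1), a clade II gene known from vegetative cells of pollen, with signals of 4.085, 4.197 and 4.174 in 35S::KLU against 3.986, 3.836 and 3.708 in WT. On average SWEET5 was dimmer than the lower quartile of the arrays (4.06 to 4.11), its genotypes were 0.10 apart and its difference was 0.31 (SE 0.09).

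Because a scale factor common to an array cancels in the ratio of 2 probe sets on it, the members were also set against each other within arrays, as a description. Relative to its mean in WT, the log2 ratio of SWEET13 to SWEET2 was 2.84 ± 0.22 in 35S::KLU, with a spread of 0.09 in WT (SD, n = 3 each). The ratio of SAG29 to SWEET2 was higher by 2.20 ± 0.18 in 35S::KLU, and its spread was 0.06 in WT. Between the tonoplast genes, the ratio of SWEET16 to SWEET2 was higher by 1.41 ± 0.32 in 35S::KLU, and its spread was 0.09 in WT. On every 35S::KLU array these 3 ratios lay at least 1.15 above the WT mean, and on the WT arrays they stayed between -0.10 and 0.09 of it. This separation follows from the members' own values, whose genotypes did not overlap and whose differences from WT had opposite signs. All 3 ratios share SWEET2, so they are not separate results. The sucrose carriers also differed in size from each other, the ratio of SWEET13 to SAG29 being higher by 0.65 ± 0.18 in 35S::KLU, with a spread of 0.14 in WT.

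Of the other 12 measured SWEET genes, 0 rose and 0 fell by limma, beside 4.05% higher and 4.27% lower of all probe sets. At those shares a count of 0 among 12 does not set these genes apart. Their median difference was 0.02 with a range from -0.13 to 0.31, and the median over all probe sets was -0.02. At an unadjusted limma p under 0.05 there were 2 of the 12, SWEET4 and SWEET5, beside 4939 of all 22746 probe sets. Both had higher signals in 35S::KLU. The genotypes did not overlap for 3 of the 12, SWEET4, SWEET5 and SWEET10, which is 25% beside 25.9% of all probe sets. SWEET5 passed under 6 of its 13 alternative settings, among them the 3 other scalings (adjusted p 0.044 to 0.047), and SWEET4 passed under 2 of 14. Both passed when WT replicate 1 was left out.

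Within clade III, SWEET11, which with SWEET12 moves sucrose out of leaf phloem parenchyma for loading, had signals of 10.77, 10.69 and 10.65 in 35S::KLU against 10.78, 10.66 and 10.61 in WT, and its difference of 0.02 had a 95% interval from -0.15 to 0.19. The ratio of SWEET13 to SWEET11 was higher on all 35S::KLU arrays, by 1.80 ± 0.07, and that of SAG29 to SWEET11 by 1.15 ± 0.17. As SWEET11 hardly differed, both ratios restate the differences on which SWEET13 and SAG29 were chosen. SWEET14, the closest relative of SWEET13, had signals between 3.93 and 4.05 in 35S::KLU and between 3.83 and 4.02 in WT (difference 0.07, SE 0.08). SWEET9, required for nectar secretion, and SWEET10, linked to flowering, differed by 0.06 and -0.13 (SE 0.09 and 0.07). SWEET9, SWEET10 and SWEET14 were dimmer than the lower quartile of the arrays, where a difference may go unseen.

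In clade IV, SWEET17, the clade IV relative of SWEET16 and a tonoplast fructose carrier, had signals of 8.28, 8.19 and 8.21 in 35S::KLU against 8.31, 8.27 and 8.10 in WT. The genotypes overlapped, and the difference was 0.00 with a 95% interval from -0.18 to 0.17. The ratio of SWEET16 to SWEET17 was higher by 0.38 ± 0.10 in 35S::KLU, and its spread was 0.22 in WT. The ratio of SWEET2 to SWEET17 had a mean of -1.02 ± 0.30 in 35S::KLU relative to WT. Since SWEET17 hardly differed, these ratios restate the differences on which SWEET16 and SWEET2 were chosen. In clade I, SWEET1, a plasma membrane glucose carrier, differed by -0.12 (SE 0.10, 95% interval -0.33 to 0.10), and SWEET3 by -0.06 at a dim level. In clade II, SWEET4 differed by 0.22 (SE 0.09, adjusted p = 0.18). SWEET6, SWEET7 and SWEET8, the last needed for pollen wall formation, differed by 0.08, 0.02 and -0.03 (SE 0.09, 0.09 and 0.10). SWEET7 was dimmer than the lower quartile of the arrays, and SWEET8 lay just above it.

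**Figure D2:**
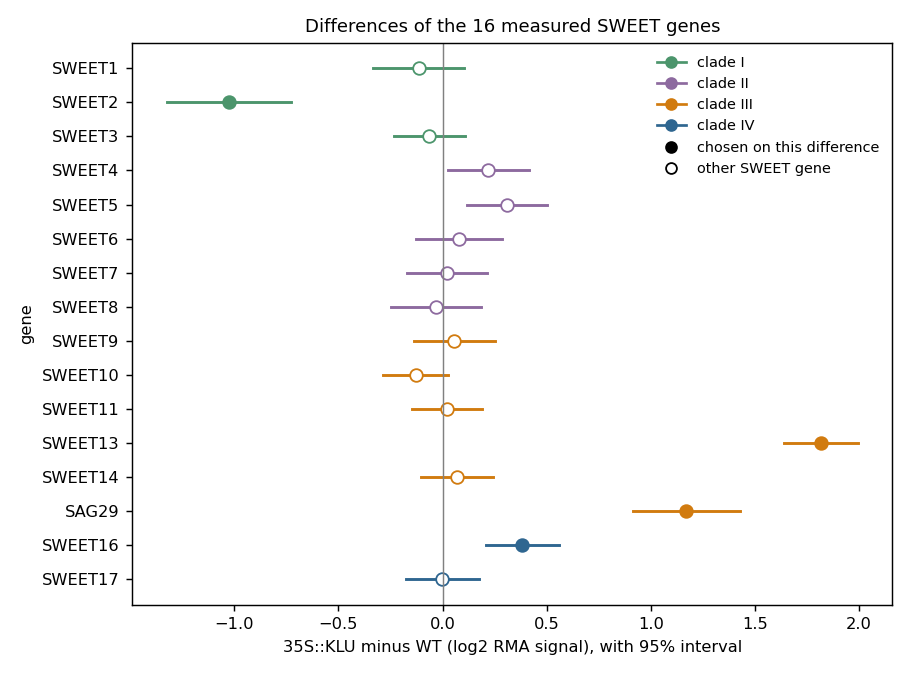
Difference of each of the 16 measured SWEET genes (35S::KLU minus WT, log2 RMA signal, horizontal axis) with its 95% interval from limma, grouped by clade. Filled points are the 4 genes chosen on this difference, between -1.03 and 1.82, and open points are the 12 others, between -0.13 and 0.31.

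Sugars also cross these membranes by other carriers, and lists of them were drawn up by locus number. The lists were chosen with earlier results of these data known, so their counts are a description. Of 75 listed carriers and sucrose enzymes 19 had a listed probe set, of which 3 rose, 4 fell and 12 did not pass, beside 3.51% of all genes higher and 3.34% lower when each gene is taken by its brightest probe set. Without WT replicate 2, and likewise without 35S::KLU replicate 3, 2 fell. On leaving out 1 array the number that rose was 2, except without WT replicate 1, where it was 4. The median over the 19 was 0.06, against -0.02 over all genes. The 9 proton-coupled sucrose symporters of the SUC list, which take up the sucrose that SWEET proteins release, had 0 listed probe sets and are not analysed here. Locus IDs below carry no gene name in the annotation used and are placed by the list that holds them.

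Genes of the tonoplast and ERD6-like list changed in both directions, with 1 of 7 measured higher and 3 lower. TMT2, a proton-coupled carrier that loads sugars into the vacuole, rose, with signals of 8.09, 7.89 and 8.09 in 35S::KLU against 7.71, 7.62 and 7.61 in WT (difference 0.37, SE 0.08, adjusted p = 0.02). TMT2 did not pass when WT replicate 2 or 3 was left out (adjusted p = 0.091 and 0.066), nor when 35S::KLU replicate 1 or 3 was (adjusted p = 0.063 and 0.078). TMT1 and TMT3 of the same family differed by 0.24 and 0.09 and did not pass. AT1G19450 had the largest difference of the 7 and fell to 9.03, 9.03 and 8.75 in 35S::KLU, against 10.50, 10.36 and 10.24 in WT (difference -1.43, SE 0.10, adjusted p = 4.8e-05). SFP1 and SFP2, genes of sugar porter family proteins, fell too, by 0.37 (SE 0.09, adjusted p = 0.028) and by 0.60 (SE 0.07, adjusted p = 0.0011). SFP2 passed under all 14 alternative settings, whereas SFP1 did not pass when any single array other than WT replicate 1 was left out (adjusted p at most 0.094). AT5G17010 differed by 0.30 (adjusted p = 0.052) and passed under 7 of 14 alternative settings.

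On the list of STP genes, proton-coupled importers of hexoses in the plasma membrane, 2 of 4 measured genes rose and 0 fell. AT5G61520 had signals of 7.43, 7.51 and 7.78 in 35S::KLU against 6.82, 6.81 and 6.72 in WT (difference 0.79, SE 0.10, adjusted p = 0.0011). AT1G34580 differed by 0.47 (SE 0.09, adjusted p = 0.015), and did not pass when 35S::KLU replicate 2 was left out (adjusted p = 0.058). AT5G26250 and AT3G19940 differed by -0.08 and 0.20 and did not pass.

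Of 5 measured sucrose enzyme genes 1 fell and 0 rose. It was ATSPS4F, a gene of sucrose phosphate synthase, the enzyme that makes the phosphorylated precursor of sucrose in the cytosol. Its signals were 8.89, 8.27 and 8.37 in 35S::KLU against 9.32, 9.51 and 9.13 in WT (difference -0.81, SE 0.16, adjusted p = 0.013), and it did not pass when WT replicate 2 (adjusted p = 0.067) or else 35S::KLU replicate 3 (adjusted p = 0.052) was left out. The other 4 differed by -0.16 to 0.16. Among them was cwINV6, named as a cell wall invertase and listed as a fructan exohydrolase, at -0.01 and at a dim level. None of the 2 measured polyol carrier genes and the 1 measured plastid envelope carrier gene passed, AT2G20780 at 0.22, AT2G18480 at -0.16 and AT5G17630 at -0.22.

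**Figure D3:**
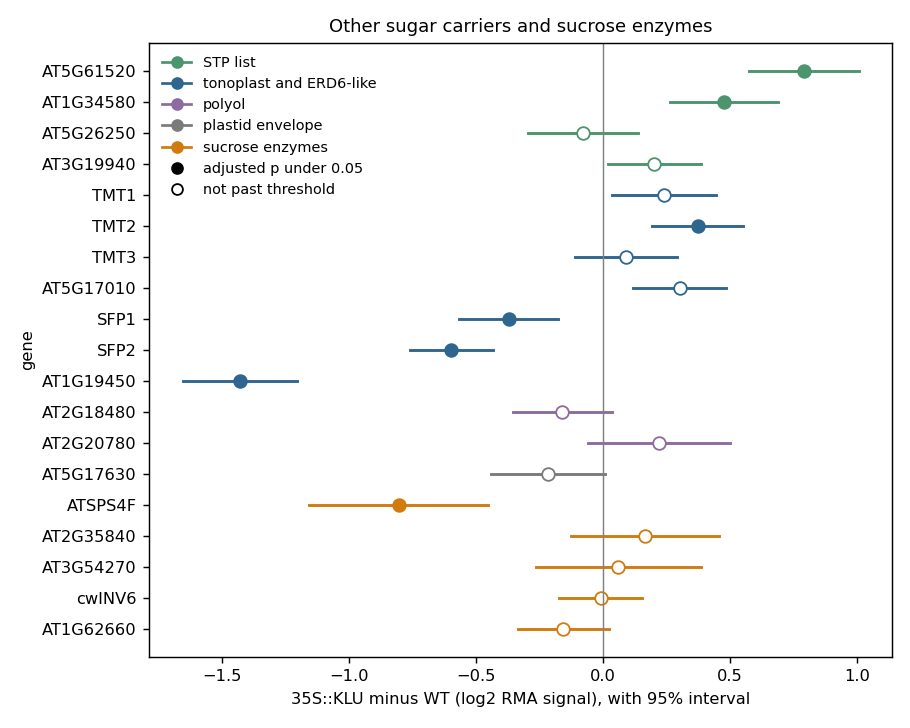
Difference of the 19 measured carriers and sucrose enzymes (35S::KLU minus WT, log2 RMA signal, horizontal axis) with its 95% interval from limma, coloured by list. Filled points passed an adjusted p of 0.05, with 3 higher and 4 lower in 35S::KLU, the lowest being AT1G19450 at -1.43 and the highest AT5G61520 at 0.79.

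SAG29 is known to respond to abscisic acid, osmotic stress and senescence, so measured genes of those programmes were set beside it. Of 16 genes on the abscisic acid and osmotic list 3 were measured, and all 3 rose, beside 3.51% of all genes by their brightest probe sets. The list was chosen with earlier results of these data known, so the count is a description. The cold- and drought-induced chloroplast protein genes COR15A and COR15B differed by 2.44 and 2.35 (SE 0.11 and 0.12), and the dehydrin gene LTI30 by 1.46 (SE 0.23). LTI30 had signals of 6.22, 7.28 and 7.15 in 35S::KLU, where replicate 1 was lowest, against 5.56, 5.39 and 5.33 in WT, whereas SAG29 was highest on replicate 1 of 35S::KLU. Of 10 genes on the senescence list 3 were measured, and 1 rose, beside the same 3.51%. SAG101, a lipase-like gene of senescence and defence, rose by 0.50 (SE 0.07, adjusted p = 0.003). Its signals were faint, 4.67, 4.78 and 4.77 in 35S::KLU against 4.31, 4.26 and 4.15 in WT. WRKY53 and WRKY6, transcription factors of leaf senescence, differed by 0.28 and -0.11 (adjusted p = 0.26 and 0.65). WRKY53 was dimmer than the lower quartile of the arrays, where a difference may go unseen.

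The genes that flank the 4 members were looked up in RefSeq annotation of assembly TAIR10.1, with 3 protein-coding genes taken on each side, a window chosen after the members' values were seen. Of the 24 flanking genes 12 had a listed probe set, 3 of which passed, beside 6.85% of all genes. The count was 1 of 12, AT3G16670, when WT replicate 2, its replicate 3 or replicate 2 or 3 of 35S::KLU was left out. The gene next to SWEET13 is SWEET10, so these clade III genes are neighbours, and while SWEET13 was 1.82 higher in 35S::KLU, SWEET10 differed by -0.13 with a 95% interval from -0.29 to 0.03. The ratio of SWEET13 to SWEET10 was higher by 1.95 ± 0.16 in 35S::KLU, which mostly restates the difference on which SWEET13 was chosen.

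Near SWEET16, AT3G16670, 2 protein-coding genes away, was 3.87-fold lower in 35S::KLU (difference -1.95, SE 0.21, adjusted p = 5.8e-04). Its signals were 8.30, 7.98 and 7.27 in 35S::KLU against 9.89, 9.88 and 9.64 in WT, opposite in sign to SWEET16. Between them lies AT3G16680, at a dim level and with a difference of -0.02. On the other side of SWEET16 its next gene AT3G16700 rose by 0.34 (SE 0.07, adjusted p = 0.019), close to the 0.38 of SWEET16, but it did not pass when replicate 2 or 3 of either genotype was left out (adjusted p at most 0.094). Next to SWEET2, AT3G14760 fell by 0.32 (SE 0.07, adjusted p = 0.024), and likewise did not pass when any of those 4 arrays was left out (adjusted p at most 0.085). The other measured gene next to SWEET2, AT3G14780, differed by -0.17 at a dim level and did not pass.

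For each member the 3 genes were found whose 6 values, each minus the gene's mean in WT, lay nearest to its own by root mean square difference. The differences were not scaled, so the number of genes within a fixed distance is lower the larger a member's difference and does not compare the members. SWEET13 had 1 gene within 0.2 on the log2 scale, AT1G73040, at a distance of 0.13. AT1G73040 had signals of 7.25, 7.26 and 7.26 in 35S::KLU against 5.52, 5.29 and 5.53 in WT. Next came PUB19, a ubiquitin ligase gene induced by drought and abscisic acid, at 0.24, and AT2G37870 at 0.25.

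SWEET2 had 13 genes within 0.2. The nearest was UGT76C2, a glucosyltransferase gene of cytokinin inactivation, at 0.11, with 6.64, 6.90 and 6.32 in 35S::KLU against 7.67, 7.72 and 7.61 in WT, and as for SWEET2 replicate 3 of 35S::KLU was the lowest array. AT1G20070 and AT1G67860 followed at 0.12 and 0.15. SAG29 had 11 genes within 0.2, the nearest being AT2G43530 at 0.13, the flavonoid glucosyltransferase gene UGT78D2 at 0.13 and MGL, the gene of methionine gamma-lyase, at 0.15. UGT78D2 had 9.28, 8.89 and 8.66 in 35S::KLU, against 8.02, 7.89 and 7.91 in WT. UGT78D2 and MGL shared the order of the 35S::KLU arrays with SAG29, and AT2G43530 did not. The distance was taken over these same values, so a like order among the nearest genes is partly built in. SWEET16 had 1331 genes within 0.2, and the nearest were AT1G68820, AT1G80530 and AT4G00670, at 0.04 each. These likenesses were measured over 6 arrays that fall into the 2 genotypes the members were chosen on, and they carry no test.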

How the data were processed

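The authors deposited 1 log2 value per probe set for each of 6 Affymetrix ATH1 arrays, made with RMA per the submitters' processing notes, which give no version. Of 22810 probe sets 64 Affymetrix controls were left out and 22746 were analysed with no filter on level. Genes were named from the 13513 probe sets that the platform annotation pairs with 1 gene (13355 genes), of which 13436 matched RefSeq, assembly TAIR10.1. Each of the members and list genes had 1 such probe set.

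Differences were fitted with limma 3.58.1 (lmFit, eBayes) in R 4.3.3 over all 6 arrays, and p-values, two-sided, were adjusted by Benjamini-Hochberg across every probe set analysed. Python 3.11.15, pandas 2.3.3 and matplotlib 3.10.9 handled tables and figures. The fit was tested on simulated data. The number of arrays limits the precision.

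The members and lists were chosen with earlier results of these data known. The rule named the members, the other SWEET genes, up to 4 called members of each list (or the one with the smallest p) and the nearest 3 genes in pattern. Further list genes and the flanking genes were chosen after their values were seen. Alternatives were 3 other scalings, weights for array quality, a block for the replicate number, omission of each array in turn, a filter that kept only the brighter probe sets, eBayes with trend and robust, and averaging the probe sets of a gene. A planned count of promoter motifs was not run, as promoter sequences were not used here.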

Additional observations from a re-analysis of the deposited data

How the results depend on the processing

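The differences of SWEET2, SWEET13, SWEET16 and SAG29 kept their sign under the 3 other scalings, array quality weights and leaving out each array. They moved by less than their pooled SD (the root mean square of the SDs of both genotypes). For the omissions this was fixed in advance, since dropping 1 of 3 arrays cannot move a difference by that much. On leaving out arrays the differences ranged from -1.13 to -0.85, 1.77 to 1.87, 0.33 to 0.44 and 1.04 to 1.28. No member's genotypes overlapped, so leaving out 1 array could not change a sign. The replicate block cannot change a difference when each number has 1 array per genotype. Counts of calls moved more. Of the other SWEET genes 1 was higher in 35S::KLU under each of the 3 scalings and with eBayes with trend and robust, 2 with array quality weights, and 0 to 2 on leaving out an array, the 2 appearing without WT replicate 1. Of the carriers and sucrose enzymes 5 rose with array quality weights, and 4 under each of the 3 scalings and with eBayes with trend and robust. On leaving out an array 2 to 4 rose, the 4 appearing without WT replicate 1. In the same omissions 2 to 4 fell, the 2 appearing without WT replicate 2 or 35S::KLU replicate 3. Of the tissue markers 1 was higher with array quality weights, the replicate block, or eBayes with trend and robust, and 0 to 1 on leaving out an array, the 1 being PYK10 without WT replicate 3. Over all probe sets, array quality weights gave 2978 calls, 1433 higher and 1545 lower, and leaving out an array gave 906 to 1962, with 447 to 1030 higher and 459 to 932 lower, beside 1893 with all arrays and with the lower totals found when replicate 2 of 35S::KLU (1219 left) or its replicate 3 (1142 left) was dropped, or replicate 2 of WT (906 left) or its replicate 3 (1236 left). The cause of these shifts was not tested, beyond the smaller number of arrays in each omission.

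Replicate numbers were not taken as pairs, since the labels do not say that a number marks a shared plate or experiment. Same-numbered arrays had correlations of -0.20, 0.04 and -0.06 in their deviations from the genotype means. Arrays of unlike number had -0.15 to 0.21, so the correlations do not settle which arrays shared an experiment. With the replicate block 1279 probe sets passed, 632 higher and 647 lower in 35S::KLU, and among the named list, SWEET and flanking genes AT3G14760 and AT3G16700 no longer passed (adjusted p = 0.059 and 0.062), leaving 1 flanking gene that did, while PYK10 did (adjusted p = 0.028). Averaging probe sets changed no list gene's value, as each had 1. Dim probe sets limit what the SWEET family can show, with 6 of the 12 other genes below the lower quartile of the arrays.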
